A study of Saccharomyces cerevisiae with 3 samples.

Results

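The cell wall of budding yeast surrounds the plasma membrane and bears the turgor that osmostress removes. Its inner layer is a mesh of β-1,3-glucan, made at the membrane by a glucan synthase under the GTPase Rho1 and then lengthened and branched outside the cell, with short β-1,6-glucan chains and a little chitin attached. Its outer layer is made of mannoproteins, most of them bound to β-1,6-glucan through the remnant of a GPI anchor and a smaller class, the Pir proteins, bound to β-1,3-glucan. The genes described here are 52 that encode these synthases, remodelling enzymes, wall mannoproteins and the yapsin proteases of the cell surface. They are listed by name and role, with no threshold on their values, though the list was chosen with earlier results of these data known. Of these 52 genes, 51 were found among the 4069 named genes of the arrays, and GAS2 was not found under its name or a synonym.

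The cells were of BY4741, a haploid laboratory strain labelled wild type, in which HIS3, LEU2, MET17 and URA3 are deleted in whole or in part. They were grown in rich medium, and for each of 3 independent cultures untreated cells were compared with cells given a shock of NaCl at 0.4 M that lasted 15 minutes according to the labels. RNA of both conditions from a culture was put on 1 array, with stressed RNA in Cy3 and untreated RNA in Cy5 on all 3 arrays. The dyes were never exchanged, so a dye effect particular to a gene cannot be told apart from an effect of NaCl for any gene below.

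Each value is a log2 ratio of stressed over untreated cells, averaged over the spots of a gene on an array, so that 1 stands for a doubling. The scale and direction are not stated with the deposited values. They were read this way because STL1, GPD1, GPP2, CTT1 and HSP12, known targets of osmostress, were above 0 on every array and at no less than 3.82. The base of 2 was read from the lowest mean, 0.72, among 383 measured genes that the study selected by a fold threshold whose log2 is 0.81. The arrays had medians of -0.001, -0.013 and -0.023 over all genes, and a shift common to every transcript is thus hidden. Ratios give no level of a transcript in either condition, and the most abundant wall gene cannot be read from them. The genes deleted in BY4741 stayed within 0.21 of 0 on every array. Pearson's correlation across the 51 cell wall genes was 0.949 for replicate 1 with 2, 0.930 for 1 with 3 and 0.964 for 2 with 3. This is a correlation across genes, which are not independent replicates.

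Upon osmostress the cell wall genes did not move as a unit. Tested with limma against no change, with adjustment over all 4069 genes, 20 of the 51 rose, 9 fell and 22 did not pass an adjusted p of 0.05. The share that rose was 39.2%, against a background of 26.9% of all genes, and the share that fell was 17.6%, against 27.9%. The size of the latter share moved with the arrays used, as did that of all genes. It was 27.5% without replicate 1 (32.9% of all genes), 9.8% without replicate 2 (17.1%) and 13.7% without replicate 3 (25.2%). In each of these fits it lay below the share of all genes, and the gap was not tested. The share that rose was 39.2% without replicate 1 (31.5% of all genes), 35.3% without replicate 2 (19.1%) and 43.1% without replicate 3 (24.8%). The median log2 ratio of the 51 genes was 0.11, that of all genes -0.01. The median size of a change regardless of its sign was 0.36 against 0.33. The typical change was thus close in size to that of other genes. At least 2-fold higher were 5 cell wall genes (9.8%, against 6.61% of all genes), namely SPI1, CWP1, YPS1, PIR3 and CHS1, and at least 2-fold lower were 2 (3.92%, against 3.69%), UTR2 and EXG1. The plot of all cell wall genes by role shows these 7 beyond a doubling or halving, where no other mean lies.

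**Figure D1:**
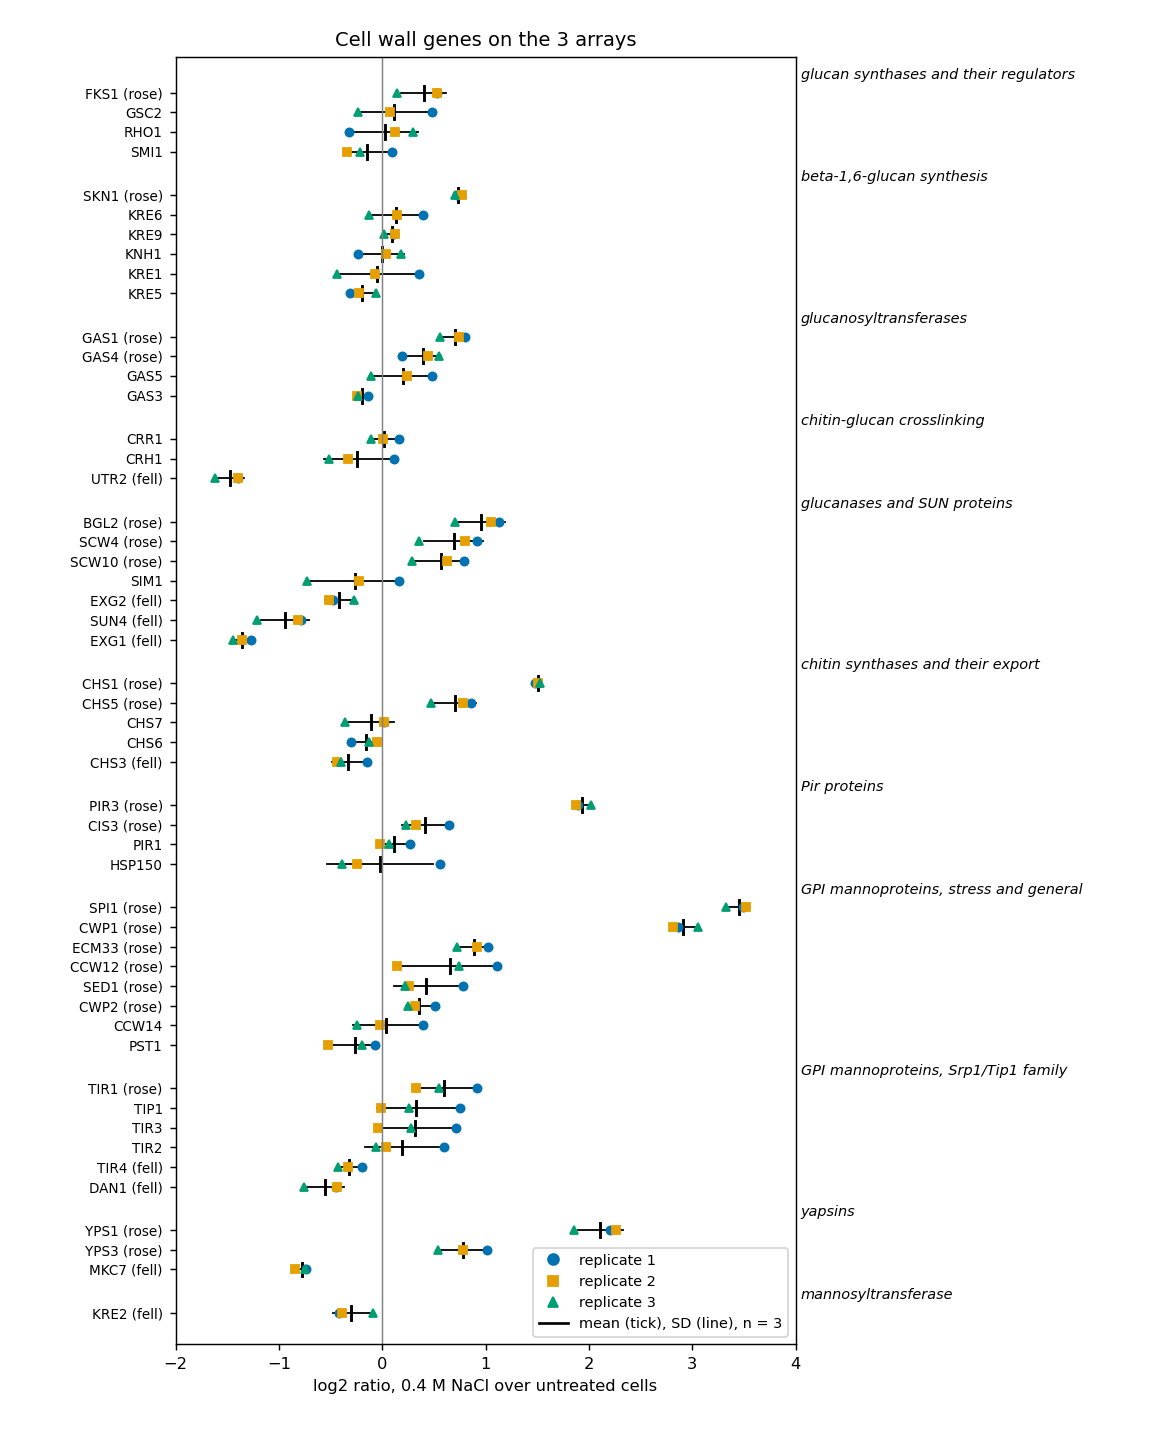
Log2 ratio of 0.4 M NaCl over untreated cells (horizontal axis) for the 51 measured cell wall genes, grouped by role, with a symbol for each of the 3 arrays, a tick at the mean and a line for the SD (n = 3). SPI1, CWP1, YPS1, PIR3 and CHS1 lie at 1.51 or above in the mean, UTR2 and EXG1 at -1.36 or below, and many of the others cross 0 between arrays.

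The largest increases were in genes of GPI mannoproteins. SPI1, a small wall protein gene known for its induction in stationary phase and under weak acids, had log2 ratios of 3.49, 3.52 and 3.33 on the 3 arrays. Its mean was 3.45 ± 0.10 (SD, n = 3), or 10.9-fold, with adjusted p = 8.56e-08 from limma. CWP1, which encodes a mannoprotein deposited at the birth scar, stood at 2.86, 2.81 and 3.06, a mean of 2.91 ± 0.13 or 7.52-fold (adjusted p = 2.83e-07 from limma). Both genes were far above 0 on every array. ECM33, whose product is needed for an orderly outer layer, had 1.02, 0.92 and 0.72, with a mean of 0.89 ± 0.15 (1.85-fold, adjusted p = 0.000196). CCW12, which encodes a major structural mannoprotein, rose by 0.66 ± 0.49, and its arrays were far apart at 1.11, 0.14 and 0.74. SED1, the gene of an abundant wall protein of stationary phase, had 0.78, 0.26 and 0.22, a mean of 0.42 ± 0.31, so replicate 1 alone stood clear of a small change. CWP2, a structural mannoprotein gene, rose by 0.36 ± 0.13, though not past the threshold with replicate 2 left out (adjusted p = 0.107). Its mean was 0.38 in that fit, in which 777 of all genes rose in place of 1093.

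These genes belong to a list of 8 GPI mannoproteins of stress and general roles, so stress genes were part of its choice. Of the 8, 6 rose (75%, against 26.9% of all genes) and none fell (against 27.9%), and the median was 0.54. The remaining genes were CCW14, whose product is an inner wall mannoprotein, at 0.39, -0.02 and -0.24 (adjusted p = 0.794 from limma), and PST1, a relative of ECM33, at -0.07, -0.52 and -0.20. PST1 missed the threshold at an adjusted p of 0.0808 and passed as a decrease without replicate 1 (adjusted p = 0.0202).

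The Tip1 family of serine-rich GPI proteins, known from cold shock and growth without oxygen, has 6 members here. Of these, 1 rose (16.7%, against 26.9% of all genes), 2 fell (33.3%, against 27.9%) and 3 did not pass. TIR1 had log2 ratios of 0.92, 0.33 and 0.55 and rose by 0.60 ± 0.30 (SD, n = 3, adjusted p = 0.00468 from limma). DAN1, a gene of anaerobic growth, stood at -0.45, -0.44 and -0.76, a mean of -0.55 ± 0.18 (adjusted p = 0.00275). TIR4 had -0.20, -0.33 and -0.43, and its call did not hold with replicate 2 left out (adjusted p = 0.190) or with replicate 3 left out (0.125). In the other members, TIP1, TIR2 and TIR3, replicate 1 was the highest array and replicate 2 was near 0. TIP1 had 0.75, -0.01 and 0.26, TIR3 had 0.71, -0.04 and 0.28, and TIR2 had 0.60, 0.04 and -0.06, with adjusted p = 0.0833, 0.0902 and 0.271 from limma. TIP1 and TIR3 passed as increases without replicate 2 (adjusted p = 0.0268 and 0.0296) and also with replicate 3 left out (0.0286 and 0.0479). Without replicate 1 neither passed, with a mean of 0.12 for each gene (adjusted p = 0.286 and 0.318 from limma).

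Among the 4 Pir protein genes, 2 rose (50%, against 26.9% of all genes), none fell (against 27.9%) and 2 did not pass. PIR3 stood at 1.89, 1.88 and 2.02, a mean of 1.93 ± 0.08 (SD, n = 3) or 3.81-fold, with adjusted p = 1.89e-06 from limma. CIS3 had 0.65, 0.33 and 0.23 and rose by 0.41 ± 0.22, though not past the threshold with replicate 2 left out (adjusted p = 0.0551). In that fit its mean was 0.44. PIR1 stayed near 0 at 0.27, -0.02 and 0.07 (adjusted p = 0.400). HSP150, a Pir gene known from heat shock, had 0.56 on replicate 1 but -0.24 and -0.39 on the others, with a mean of -0.02 ± 0.51. Without replicate 1, HSP150 passed as a decrease at -0.31 (adjusted p = 0.0158), so its direction rests on which arrays are used.

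The yapsins are aspartyl proteases held at the cell surface by a GPI anchor, and their genes moved in opposite directions. YPS1 had log2 ratios of 2.20, 2.26 and 1.86, a mean of 2.11 ± 0.22 (SD, n = 3) or 4.31-fold (adjusted p = 2.79e-06 from limma). YPS3 stood at 1.01, 0.78 and 0.54 and rose by 0.78 ± 0.23 (1.71-fold). MKC7 had -0.74, -0.84 and -0.75 and fell by 0.78 on the log2 scale, with an SD of 0.06 and adjusted p = 0.000236. No array of MKC7 came near those of YPS1 and YPS3. The added lists described below hold further yapsin genes. YPS6 rose by 0.61 ± 0.05, YPS7 fell by 0.40 on the log2 scale, and YPS5 did not pass (adjusted p = 0.0527 from limma).

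The genes of β-1,3-glucan synthesis itself changed little. FKS1, which encodes the main catalytic subunit during growth, had 0.53, 0.53 and 0.14 and rose by 0.40 ± 0.22 (1.32-fold, SD, n = 3), though not past the threshold with replicate 2 left out (adjusted p = 0.169 from limma). GSC2, the alternative catalytic subunit that calcineurin is known to induce, stood at 0.48, 0.08 and -0.23, with a 95% interval of the mean from -0.21 to 0.43. RHO1, the regulatory GTPase, had -0.32, 0.12 and 0.30, the reverse order of GSC2 over the arrays. SMI1, a regulator of wall synthesis, had 0.09, -0.34 and -0.21 and passed as a decrease without replicate 1 (adjusted p = 0.0248).

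Of 6 genes of β-1,6-glucan synthesis, 1 rose (16.7%, against 26.9% of all genes) and 5 did not pass. That gene was SKN1, at 0.72, 0.77 and 0.70, a mean of 0.73 ± 0.04 (1.66-fold, SD, n = 3, adjusted p = 0.000318 from limma). Its homologue KRE6, which carries most of this activity in growing cells, had 0.39, 0.14 and -0.13. KRE5 of the endoplasmic reticulum had -0.31, -0.22 and -0.06, and KRE1, a surface glycoprotein gene, spread from 0.36 to -0.44. The secreted Kre9 and Knh1 are related proteins, and the means of their genes were 0.09 and -0.00, near that of KRE1 (-0.05). KRE2, a Golgi mannosyltransferase gene that shares only the name of this group, had -0.42, -0.39 and -0.09 and fell, though not past the threshold with replicate 1 left out (adjusted p = 0.0700) or with replicate 2 left out (0.315).

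The Gas enzymes elongate β-1,3-glucan by transglycosylation. GAS1, the main enzyme of vegetative cells, had 0.80, 0.74 and 0.56 and rose by 0.70 ± 0.13 (1.63-fold, SD, n = 3, adjusted p = 0.000563 from limma). GAS4, known for its role in spore wall assembly, had 0.19, 0.44 and 0.55, and its call did not hold with replicate 2 left out (adjusted p = 0.119) or with replicate 3 left out (0.0650). GAS5 had 0.48, 0.24 and -0.11 and passed as an increase without replicate 3 (adjusted p = 0.0332). Its mean without replicate 1 was 0.07 (adjusted p = 0.596). GAS3 was slightly below 0 on every array, with a mean of -0.20 ± 0.05, and passed as a decrease without replicate 1 (adjusted p = 0.0360).

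Crh1, Utr2 and the sporulation protein Crr1 link chitin to glucan. UTR2 had log2 ratios of -1.40, -1.40 and -1.62 and the lowest mean of all 51 genes, -1.47 ± 0.13 (SD, n = 3, adjusted p = 1.01e-05 from limma), which is 2.78-fold lower. CRH1 stood at 0.11, -0.33 and -0.51 and passed as a decrease without replicate 1 (adjusted p = 0.00577). CRR1 had 0.16, 0.01 and -0.11. None of the 3 genes rose, against 26.9% of all genes, and 1 fell (33.3%, against 27.9%).

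The glucanases divided by enzyme. BGL2, which encodes an abundant wall enzyme with endoglucanase and transferase activity, had 1.13, 1.05 and 0.70, a mean of 0.96 ± 0.23 (1.94-fold, SD, n = 3, adjusted p = 0.000228 from limma). Its relatives SCW4 and SCW10 rose by 0.69 ± 0.29 and 0.57 ± 0.25, and all 3 had their lowest value on replicate 3. The exoglucanase gene EXG1, whose product is the main secreted exo-β-1,3-glucanase, had -1.27, -1.36 and -1.44, a mean of -1.36 ± 0.09 or 2.56-fold lower (adjusted p = 1.28e-05). EXG2, which encodes a GPI-anchored exoglucanase, fell by 0.42 on the log2 scale, though not past the threshold with replicate 2 left out (adjusted p = 0.113). Of the SUN family, SUN4, which takes part in septation, had -0.79, -0.81 and -1.21 and fell by 0.94 (adjusted p = 0.000266). SIM1 ranged from 0.16 to -0.73 and passed as a decrease without replicate 1 (adjusted p = 0.0174). The SUN genes of the added lists differed from these. NCA3 rose by 0.60 ± 0.14, and UTH1 did not pass at 0.36 ± 0.37 (adjusted p = 0.0622). BGL2, SCW4 and SCW10 thus rose and both exoglucanase genes fell, while a further relative of BGL2, SCW11, is described with the added lists and fell.

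Chitin is made by separate synthases at the septum, in the lateral wall and during repair. CHS1, the synthase gene known for repair after cell separation, had 1.48, 1.51 and 1.53, a mean of 1.51 ± 0.02 (SD, n = 3) or 2.84-fold, with adjusted p = 5.4e-06 from limma. Its SD over the arrays was the smallest of the 51 genes. CHS3, the synthase gene that accounts for most chitin in the wall, had -0.15, -0.44 and -0.40, and its call as a decrease did not hold with replicate 2 left out (adjusted p = 0.270) or with replicate 3 left out (0.0892). The products of CHS5, CHS6 and CHS7 bring Chs3 to the cell surface, and their genes differed. CHS5 of the exomer coat had 0.86, 0.78 and 0.47 and rose by 0.70 ± 0.21 (adjusted p = 0.000980). CHS6, of the same coat, was below 0 on every array with a mean of -0.16 ± 0.13 (adjusted p = 0.200). CHS7, for exit from the endoplasmic reticulum, had 0.02, 0.02 and -0.36.

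Related genes were then set against each other on the same array, a comparison from which an effect common to all genes of an array drops out. Of 16 pairs listed by their homology or shared function, 15 had both genes measured, and in 14 the difference had the same sign on all 3 arrays. With 3 arrays, the two-sided exact permutation test by sign changes cannot give a p below 0.25, and the smallest value adjusted over the 15 pairs was 0.268. This test could therefore not pass a threshold of 0.05 for any pair, no model across genes was fitted to the differences, and they are given with their spread. The widest was SED1 minus SPI1, at -2.71, -3.26 and -3.11 on the 3 arrays, a mean of -3.03 ± 0.28. YPS1 lay above MKC7 by 2.88 ± 0.25 (SD, n = 3), CWP1 above CWP2 by 2.55 ± 0.23, and CHS1 above CHS3 by 1.84 ± 0.18. Each of these 4 means was several times its SD. CRH1 lay above UTR2 by 1.23 ± 0.24 and ECM33 above PST1 by 1.15 ± 0.27. EXG1 minus EXG2 was -0.94 ± 0.21, although both fell. At the other end, SCW4 and SCW10 were 0.12 ± 0.05 apart, and the difference between KRE9 and KNH1 changed sign between arrays, at 0.33, 0.09 and -0.16. PIR1 minus PIR3 was -1.82 ± 0.18, SUN4 minus SIM1 -0.68 ± 0.25 and KRE6 minus SKN1 -0.59 ± 0.25. The plot of related pairs gives the rest.

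**Figure D2:**
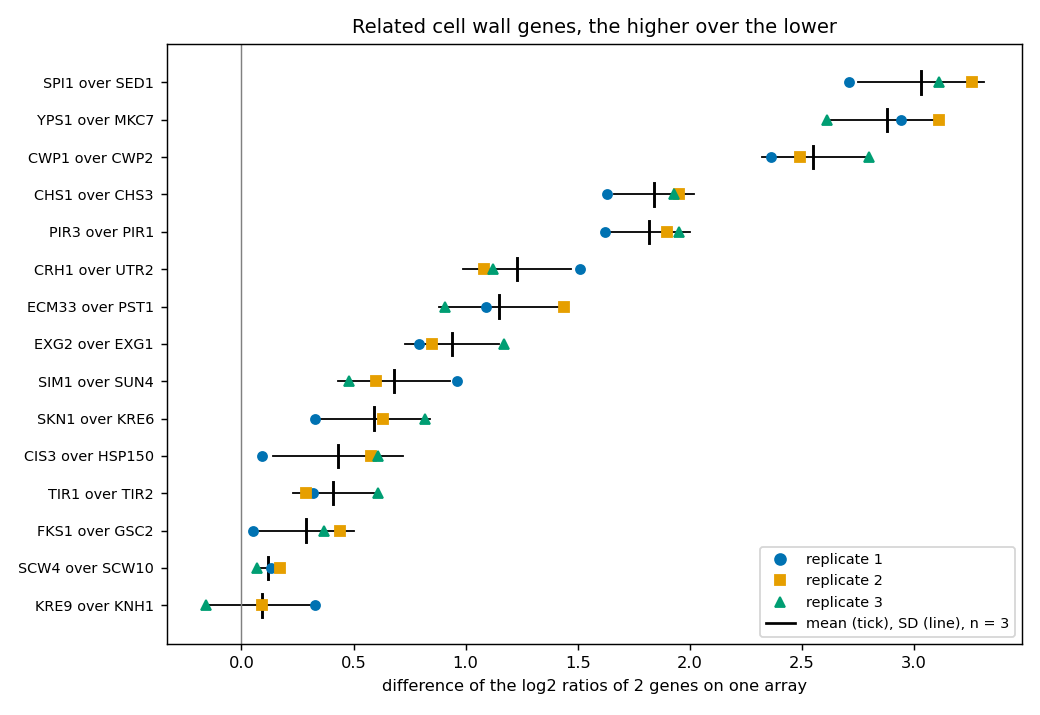
Difference between the log2 ratios of 2 related genes on the same array (horizontal axis), drawn as the higher over the lower in the mean, for 15 pairs, with a symbol for each array, a tick at the mean and a line for the SD (n = 3). From the top, SPI1 over SED1, YPS1 over MKC7 and CWP1 over CWP2 stand above 2 on every array, and the pair KRE9 and KNH1 crosses 0.

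Some of these genes are also neighbours on a chromosome in the R64 gene table, in 5 pairs. PIR1 (YKL164C) and PIR3 (YKL163W) lie side by side on chromosome XI and point away from each other, with mean log2 ratios of 0.11 and 1.93. CWP2 (YKL096W-A) and CWP1 (YKL096W) follow each other on the same strand of that chromosome, with means of 0.36 and 2.91. YPS1 (YLR120C) and YPS3 (YLR121C), in tandem on chromosome XII, both rose, at 2.11 and 0.78. HSP150 and CIS3 face each other on chromosome X, with means of -0.02 and 0.41, as do TIR4 and TIR2 on chromosome XV, with -0.32 and 0.19. Among these pairs, both genes rose in CWP2 and CWP1 and in YPS1 and YPS3 only.

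The 7 spots that each measured gene had on an array mostly gave close values, with a median SD between spots of 0.088, 0.09 and 0.092 for the cell wall genes on the 3 arrays, against 0.079, 0.093 and 0.09 for all genes. An SD over 0.4 was found on at least 1 array for 3 genes, PIR3, CWP1 and DAN1. On replicate 2, a PIR3 spot gave 0.67 and another 1.34, while the other 5 lay between 2.07 and 2.37, and a CWP1 spot gave 1.87 against 2.90 to 3.05 for the others. DAN1 had spots at 0.07 and 0.34 on that array, with the other 5 between -0.82 and -0.58. By the median of spots, the mean over arrays was 2.13 for PIR3, 2.95 for CWP1 and -0.63 for DAN1, and all 3 kept their calls. The spots are not described in the sources used here, and whether they carry 1 oligonucleotide or several was not tested. Transcripts of close relatives, such as the Tip1 family, may bind to each other's spots.

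Replicate 1 stood apart for many of the cell wall genes. It gave the highest of the 3 values for 33 of the 51 genes, or 64.7%, against 42.4% of all genes, and the lowest for 7. For the 18 genes of Pir and GPI mannoproteins, it was the highest in 14 and the lowest in none. The median of these 18 genes was 0.68 on replicate 1, 0.09 on replicate 2 and 0.24 on replicate 3. Over all 51 genes the medians were 0.39, 0.04 and 0.02, while those of all genes lay between -0.023 and -0.001. The arrays spanned more than 0.5 for 16 of the 51 genes (31.4%), against 22.3% of all genes. Without replicate 1, the same 20 cell wall genes rose (39.2%, against 31.5% of all genes), and 14 fell in place of 9, or 27.5%. The count over all genes that fell went up as well, from 1135 to 1340, or 32.9%. These 14 held 8 of the 9 and added SMI1, GAS3, CRH1, SIM1, HSP150 and PST1. What set this array apart was not tested.

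**Figure D3:**
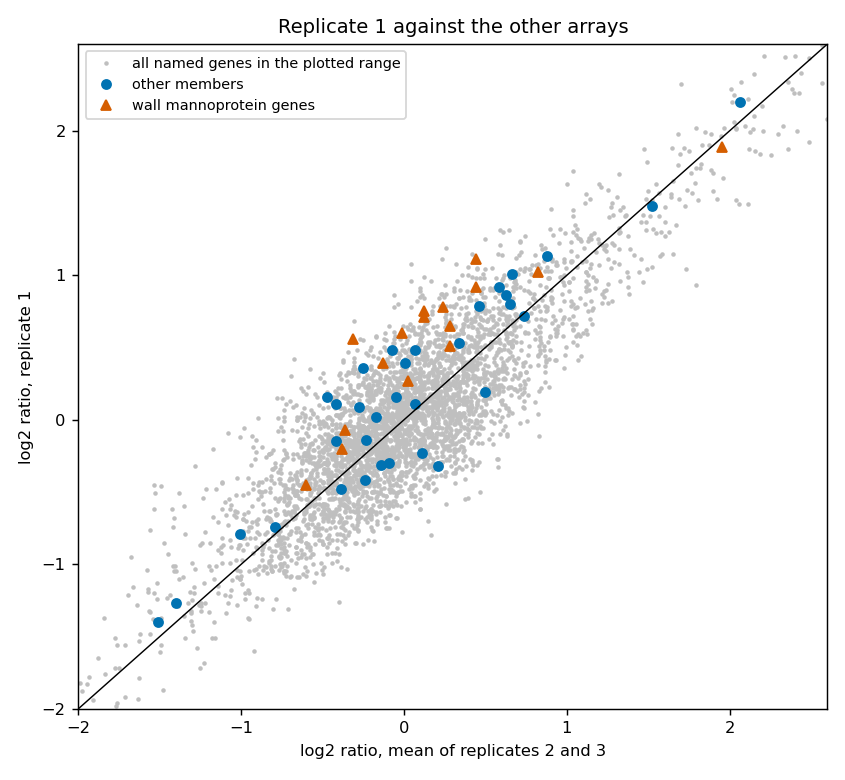
Log2 ratio on replicate 1 (vertical axis) against the mean of replicates 2 and 3 (horizontal axis) for the Pir and GPI mannoprotein genes (triangles), the other cell wall genes (circles) and all named genes in the plotted range (grey points), with the line of equal values. SPI1 and CWP1 lie beyond the range, and most triangles between -0.5 and 1 lie above the line, such as HSP150 with 0.56 on replicate 1.

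The signalling pathway that senses wall stress and the routes that supply the wall with sugars and anchors were followed with gene lists that hold none of the 51 genes. Of 25 measured genes of cell wall integrity signalling, 11 rose, 7 fell and 7 did not pass, or 44% and 28% against 26.9% and 27.9% of all genes. The highest were SDP1, which encodes a phosphatase of the MAP kinase Slt2, at 3.05, 3.16 and 3.50 (mean 3.24 ± 0.24, SD, n = 3, adjusted p = 3.47e-07 from limma), and ROM1, an exchange factor gene for Rho1, at 1.98, 2.24 and 2.35 (2.19 ± 0.19). The lowest were BEM2, which encodes a GTPase-activating protein, at -0.66 ± 0.03, and BCK1, the gene of the upstream kinase, at -0.62 ± 0.12. Named for their roles after the values were seen, SLT2 rose by 0.89 ± 0.08, and RLM1, the gene of a transcription factor that Slt2 activates, fell by 0.60 on the log2 scale.

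Among the genes of GPI anchor synthesis and of Golgi mannan synthesis, more fell than rose. Of 17 genes of GPI anchor synthesis, 10 fell, 1 rose and 6 did not pass, a share of 58.8% that fell against 27.9% of all genes, and the median was -0.38. SPT14, of the first step, had -1.38, -0.96 and -0.94 and a mean of -1.09 ± 0.25 (SD, n = 3, adjusted p = 0.000136 from limma), and GPI11 had -1.02, -0.90 and -0.80 with a mean of -0.91 ± 0.11. GPI12 rose by 0.44 ± 0.26, though not past the threshold with replicate 2 left out (adjusted p = 0.0537) or with replicate 3 left out (0.0695). Of 21 genes of mannan synthesis in the Golgi, 11 fell (52.4%) and 6 rose (28.6%, near the 26.9% of all genes). MNN1, the gene of the terminal mannosyltransferase, stood at -1.72, -1.88 and -1.67 (mean -1.76 ± 0.11, adjusted p = 3.2e-06), and MNN11 at -1.12 ± 0.21, while KTR1, a mannosyltransferase gene of the KRE2 family, rose by 0.97 ± 0.17 and the GDP-mannose transporter gene VRG4 by 0.86 ± 0.34. The median of the anchor genes was below 0 on every array, at -0.34, -0.49 and -0.35. Of the 14 GPI mannoprotein genes 7 rose (50%, against 26.9% of all genes) and 2 fell (14.3%, against 27.9%). The median of the 14 was 0.73, 0.09 and 0.26 on the arrays, highest on replicate 1.

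Smaller lists gave fewer calls. Of 6 genes of protein O-mannosylation, 2 rose (33.3%, against 26.9% of all genes) and none fell (against 27.9%). PMT2 rose by 0.55 ± 0.23 (SD, n = 3) and PMT4 by 0.36 ± 0.32. PMT4 did not pass the threshold with replicate 1 left out (adjusted p = 0.124 from limma) or with replicate 2 left out (0.239). Of 6 genes of sugar nucleotide supply, 2 rose (33.3%, against 26.9% of all genes) and 1 fell (16.7%, against 27.9%). PGM2 (phosphoglucomutase) rose by 4.28 ± 0.25 and UGP1 (UDP-glucose pyrophosphorylase) by 1.46 ± 0.14, both also needed for trehalose and glycogen. SEC53 (phosphomannomutase) fell by 0.61. Of 11 further chitin genes, 2 rose (18.2%, against 26.9% of all genes) and 3 fell (27.3%), the latter near the 27.9% of all genes. GNA1 of chitin precursor synthesis rose by 0.44 ± 0.14 and the chitinase gene CTS1 by 0.38 ± 0.14, though not past the threshold with replicate 2 left out (adjusted p = 0.166). SKT5, which encodes an activator of Chs3, stood at -0.48 ± 0.06 and CDA1, a chitin deacetylase gene of spores, at -0.32 ± 0.06, and neither passed with replicate 2 left out (adjusted p = 0.0507 and 0.209). A list of 8 genes of β-1,6-glucan and wall glycoprotein processing held ROT1, which rose by 0.45 ± 0.28, and DFG5, which fell by 0.41. ROT1 did not pass the threshold with replicate 3 left out (adjusted p = 0.0897), nor DFG5 with replicate 2 left out (adjusted p = 0.0861).

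Of 34 other genes of wall proteins and glucanases, 10 rose (29.4%, against 26.9% of all genes), 14 fell (41.2%, against 27.9%) and 10 did not pass. SPS100, a gene of spore wall maturation, had 2.32, 2.94 and 3.00 (mean 2.75 ± 0.38, SD, n = 3, adjusted p = 2.69e-06 from limma), and FIT1, which encodes a mannoprotein that retains iron, had 2.89, 2.62 and 2.26 (2.59 ± 0.32). The daughter cell glucanase genes DSE4 and SCW11 were the lowest, with means of -2.26 ± 0.24 and -1.68 ± 0.28. Over all 128 genes of these added lists, 27.3% rose and 36.7% fell, with a median of -0.07, against 26.9% and 27.9% of all genes. The share that rose was thus near that of all genes. These shares describe chosen lists and were given no test.

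**Figure D4:**
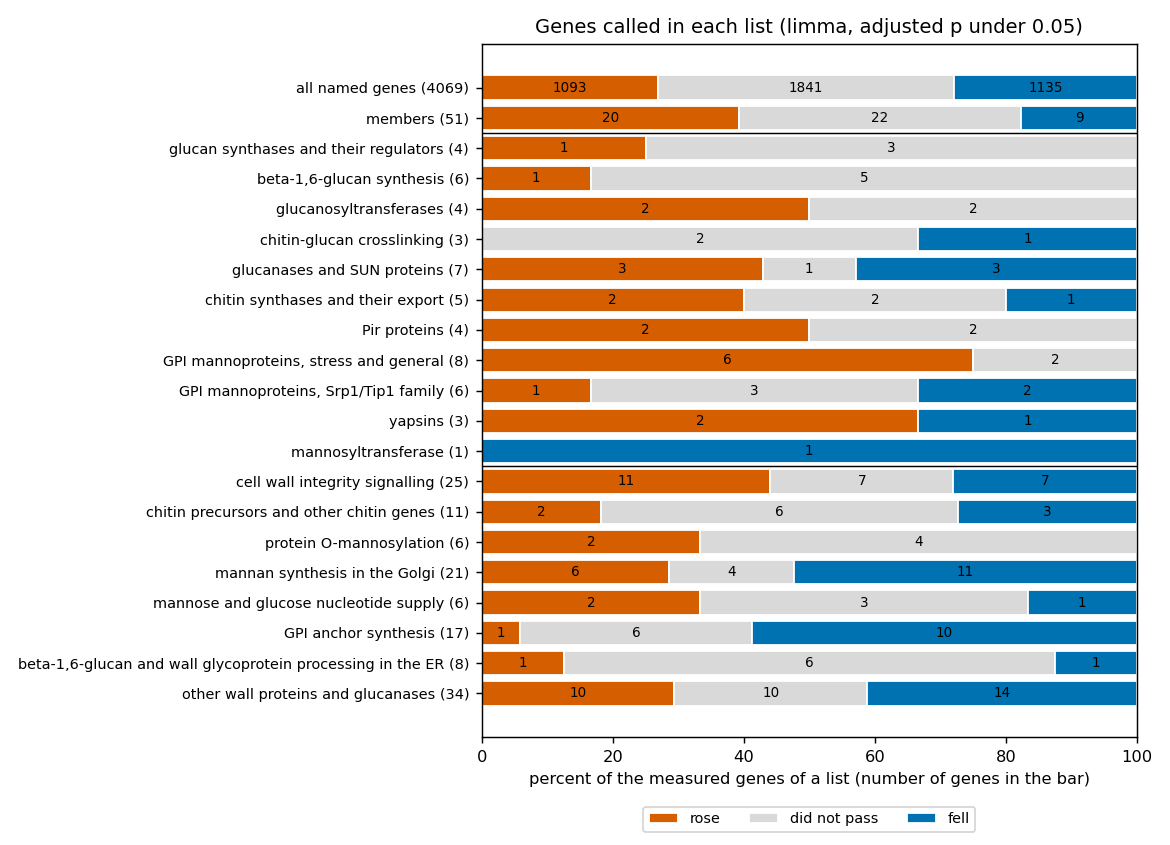
Share of the measured genes of each list (horizontal axis, in percent) that rose, did not pass or fell in limma at an adjusted p of 0.05, with the number of genes written in each bar and the size of the list in brackets. The top bars give all named genes and the 51 cell wall genes. The middle block gives the roles of these genes, of which the 8 stress and general GPI mannoprotein genes have 6 that rose. The lower block gives the added lists, of which GPI anchor synthesis has 10 of 17 that fell.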

How the data were processed

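RNA from stressed and untreated BY4741 cells was compared on 3 two-colour arrays, 1 per culture. The authors deposited normalized log ratios per spot, read here as log2, with 1 missing value, and limma is named in the submitters' notes on processing. Which version was run, and how background, normalization and filters were handled, was not given in the sources used here. No intensities were analysed here, and dim spots therefore stayed in. Of 45220 spots, 28532 carried a gene symbol of the platform annotation. Symbols were updated through the R64 gene table (3940 current, 129 through a synonym, 4 kept) to give 4069 genes, and each gene's spots were averaged array by array. limma (version 3.58.1, R 4.3.3) fitted an intercept per gene with empirical Bayes moderation, two-sided p-values and Benjamini-Hochberg adjustment over all 4069 genes at 0.05. Each array pairs both conditions of a culture. Only genes past the threshold are said to have risen or fallen. The number of arrays limits the precision. The procedure was tested on simulated data. Counts and figures were made with Python 3.11.15, numpy 2.4.6, pandas 2.3.3 and matplotlib 3.10.9.

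All 52 cell wall genes are named, and of each added list the 2 that rose and the 2 that fell furthest with the same sign on every array. SLT2, RLM1 and the further yapsin and SUN genes were named after their values were seen. The genes and lists were chosen with earlier results of these data known, so no count over a list was tested. MLP1 was taken out of the signalling list after its values were seen, because on this array the symbol names a nuclear pore gene. Promoter motifs and protein features had been planned but were not analysed here, and no sequence is shown. The alternatives were arrays centred or scaled, the spots' median, robust empirical Bayes, a threshold of 0.01, limma's treat against a fold of 1.2 and leaving out each replicate.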

Additional observations from a re-analysis of the deposited data

How the results depend on the processing

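The 20 cell wall genes that rose and the 9 that fell kept their calls with arrays centred on their median, with arrays scaled to one spread, with the median of spots and with robust empirical Bayes. At a threshold of 0.01, 14 of the 20 and 6 of the 9 remained. Of all named genes, 808 of the 1093 that rose and 774 of the 1135 that fell remained. Tested with limma's treat against a fold of 1.2, 13 rose and 5 fell, by construction a stricter test, and of all named genes 620 rose and 560 fell in place of 1093 and 1135. Leaving out 1 replicate at a time gave 18 to 22 cell wall genes that rose, or 35.3% to 43.1%, against 19.1% to 31.5% of all genes. Those that fell were 5 to 14, or 9.8% to 27.5%, against 17.1% to 32.9%. Of the 9 that fell, 8 remained without replicate 1, 5 without replicate 2 and 7 without replicate 3, and of the 20 that rose, 20, 16 and 19. Without replicate 2, 777 of all named genes rose and 695 fell, in place of 1093 and 1135. These fits rest on 2 arrays. The number of pairs of related genes with a difference of one sign on all arrays was 14 of 15 with the median of spots. This was the only alternative tried for the pairs that could have lowered the count. Centring or scaling an array cannot change the sign of a difference on it, and leaving out an array cannot lower the count. Those counts were 14, or 15 without replicate 3, and say nothing on stability. The difference between PIR1 and PIR3 was -2.04 by the median of spots, against -1.82 by their mean. Each array holds both conditions of a culture as a ratio, so the test on these ratios was already paired by culture.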
